A study of Homo sapiens with 9 samples.

Results

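A set of mature miRNAs encoded singly inside introns of protein-coding genes was followed in HCT116 colorectal carcinoma cells and in HCT116 sublines resistant to oxaliplatin or to 5-fluorouracil. They were hsa-miR-218-5p (host genes SLIT2 and SLIT3), hsa-miR-190a-5p (TLN2), hsa-miR-589-5p (FBXL18) and hsa-miR-629-5p (TLE3), which is 4 of the 1198 mature miRNAs in the count table. They were picked by name as unclustered intronic miRNAs that shift in one or both sublines, with no stated size of shift. Their differences between the lines therefore chose them and are given here as a description without a test.

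HCT116 is an established human colorectal carcinoma epithelial line. HCT-Oxa-c was selected from it by continuous exposure to rising concentrations of oxaliplatin, a platinum drug that crosslinks DNA. HCT-FU-c was selected in the same way with 5-fluorouracil, an antimetabolite that blocks thymidylate synthesis and is built into RNA and DNA. The parental HCT116 cells are the comparison for both, so both comparisons use the same HCT116 libraries. Each drug is represented by 1 subline, each line gave 3 biological replicates, and the replicates therefore measure the spread between cultures of 1 subline and not between independent selections.

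An intronic miRNA is cut as a hairpin out of the intron of its host transcript, and it can be made along with the host mRNA or from a promoter of its own. Each hairpin gives a 5p and a 3p strand, of which usually one is loaded into an Argonaute protein while the other is degraded. The loaded strand finds its target mRNAs mainly through the seed, a short stretch near its 5′ end. The host genes here have unrelated functions. SLIT2 and SLIT3 are secreted guidance proteins that bind ROBO receptors, TLN2 is a talin that links integrins to the actin cytoskeleton, FBXL18 is an F-box protein of a ubiquitin ligase, and TLE3 is a transcriptional corepressor of the Groucho family.

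The mature sequences are shown because they define what was counted and what each miRNA can pair with. They are written 5′ to 3′ from RefSeq on GRCh38.p14, and capitals mark the seed, bases 2 to 8.
miR-218-5p: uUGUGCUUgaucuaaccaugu
miR-190a-5p: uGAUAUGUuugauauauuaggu
miR-589-5p: uGAGAACCacgucugcucugag
miR-629-5p: uGGGUUUAcguugggagaacu
miR-190b-5p: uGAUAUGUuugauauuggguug
No seed was shared between the 4 miRNAs. Among all listed miRNAs with a RefSeq sequence, only miR-190b-5p had the seed of one of them. It is identical to miR-190a-5p over the first 15 bases from the 5′ end and is encoded on another chromosome. The GC content was 22.7% in miR-190a-5p, 38.1% in miR-218-5p, 47.6% in miR-629-5p and 54.5% in miR-589-5p.

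In GENCODE 29 on GRCh38 all 5 hairpins lay on the strand of their host, inside an intron, and overlapped no exon of a protein-coding gene on that strand. MIR218-1 was located on chromosome 4 from 20528275 to 20528384, in intron 15 of 36 of SLIT2-204. MIR218-2 was located on chromosome 5 from 168768146 to 168768255, in intron 14 of 35 of SLIT3-206. Both hairpins give the same mature miR-218-5p, so its reads cannot be assigned to SLIT2 or to SLIT3.

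MIR190A was located on chromosome 15 from 62823957 to 62824041, in intron 53 of 57 of TLN2-209. MIR629 was found on the same chromosome, 7.26 Mb away on the opposite strand, from 70079372 to 70079468 in intron 4 of 19 of TLE3-214. MIR589 was located on chromosome 7 from 5495819 to 5495917, in intron 3 of 4 of FBXL18-201. The introns differed in length, from 3.78 kb in SLIT2 to 18.4 kb in TLE3. MIR218-1 and MIR629 sat toward the 3′ end of their introns, at 82.2% and 82.0% of the length, and MIR190A toward the 5′ end, at 26.0%.

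**Figure D1:**
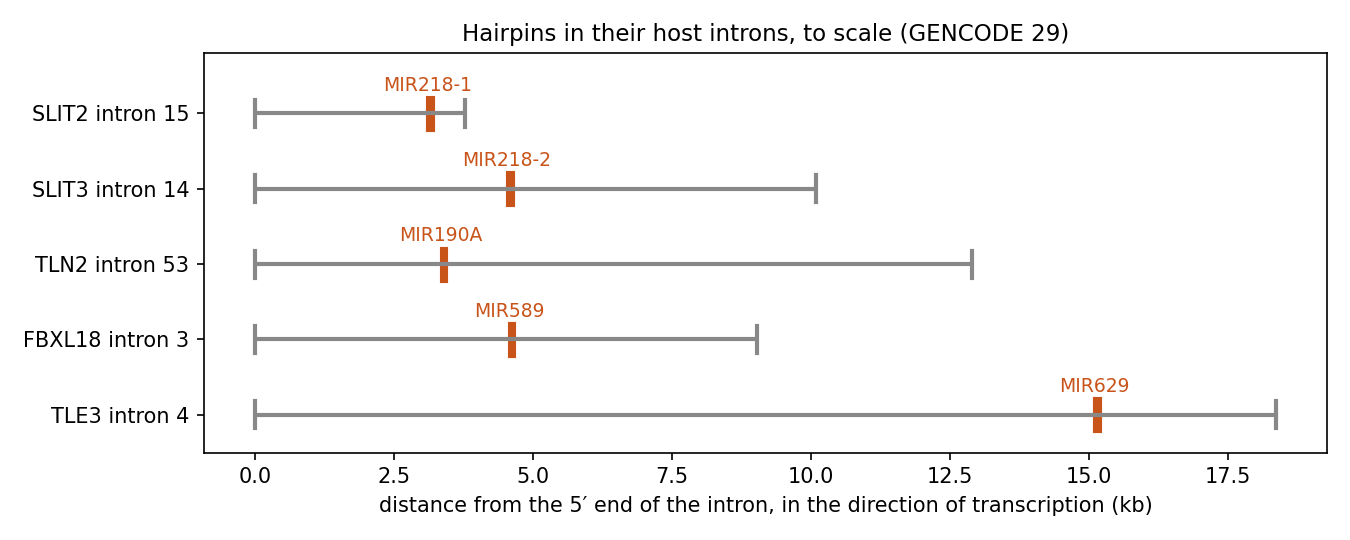
Position of each hairpin in its host intron, drawn to scale in kb from the 5′ end of the intron in the direction of transcription. Grey lines are introns and orange boxes are hairpins; MIR589 and MIR218-2 sit near the middle of their introns, at 50.6% and 44.8% of the length.

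The hairpins were far from other annotated hairpins of the same strand. The nearest was MIR103A1 at 207 kb from MIR218-2, MIR6874 at 216 kb from MIR589, MIR6085 at 481 kb from MIR190A, MIR4312 at 1280 kb from MIR629 and MIR5091 at 6900 kb from MIR218-1. SLIT3 holds a further hairpin, MIR585, whose miRNAs were not analysed here. The other 4 hosts held no other annotated hairpin.

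Small RNA was sequenced in 9 libraries, with total counts of 856383 to 2207538. Within each line replicate 3 had the lowest total, and miR-21-5p alone took 40.0% to 57.1% of a library. Levels are given as CPM, the counts of a miRNA per 1e+06 counts of a library after TMM normalization, and 3 counts, the limit set for a value not distinguishable from 0, stood for 1.34 to 4.01 CPM. Reads were not collapsed to molecules, so intervals and limits cover counting error only. Of the 1198 miRNAs 367 passed the filter on low counts, among them all 4 intronic miRNAs described here. The epithelial identity of the lines was visible in the miR-200 family, whose 5 markers summed to 23300 to 25900 CPM in replicates 1 and 2 and to 19400 to 20900 CPM in replicate 3. The replicate 3 libraries stood apart from the rest. With the line in the model, 186 of 367 miRNAs (50.7%) differed between replicate 3 and replicates 1 and 2 at an adjusted p below 0.05 (edgeR), a contrast that was chosen after seeing the data. The 5 blood markers summed to 88.1 to 269 CPM in the replicate 3 libraries against 2.1 to 11.3 CPM in the other 6, mainly through miR-451a. The liver marker miR-122-5p had 23.8 to 60.1 CPM against 0 to 3.67 CPM, and the 2 stromal markers summed to 398 to 674 CPM against 177 to 343 CPM. The 2 neural markers summed to 3020 to 3550 CPM against 2460 to 3260 CPM. Nearly all of this was miR-9-5p, which was high in every library of every line. Of 3 muscle markers only miR-1-3p was listed, at 0 to 8.01 CPM. This split of the marker sums by replicate number was also made after seeing the data. In bulk RNA a lower level in all cells and a smaller share of cells with the miRNA cannot be told apart.

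The miRNA with opposite directions in both sublines was miR-218-5p, known as a regulator of ROBO1, the receptor of its host genes' products. It reached 62.44, 58.55 and 69.45 CPM in HCT116 replicates 1, 2 and 3, from 92, 82 and 52 counts. In HCT-Oxa-c it was measured at 88.57, 147.1 and 97.45 CPM, from 169, 329 and 95 counts. In HCT-FU-c it was measured at 24.18, 30.47 and 41.68 CPM, from 32, 58 and 35 counts. All HCT-Oxa-c libraries were above all HCT116 libraries and all HCT-FU-c libraries below them, with replicate 2 of HCT-Oxa-c standing above its fellows.

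The mean level of miR-218-5p was 63.5 ± 5.52 CPM in HCT116 (SD, n = 3), 111 ± 31.5 CPM in HCT-Oxa-c and 32.1 ± 8.87 CPM in HCT-FU-c. Against HCT116 the log2 fold change for HCT-Oxa-c was 0.81 (SE 0.30), while HCT-FU-c gave -0.99 (SE 0.30). The mean was thus 1.75 times that of HCT116 in HCT-Oxa-c and 0.506 times in HCT-FU-c. Between the sublines the means differed 3.46-fold, a log2 fold change of 1.798 (SE 0.305). By level miR-218-5p ranked 139 of 367 in HCT-Oxa-c, 166 in HCT116 and 212 in the HCT-FU-c subline, and neighbouring lines in this order did not overlap. Without replicate 2 of HCT-Oxa-c its log2 fold change in that subline was 0.57.

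The scarcest of the 4 was miR-190a-5p, a miRNA from the TLN2 gene. HCT116 replicates 1, 2 and 3 held 7, 15 and 11 counts, or 4.751, 10.71 and 14.69 CPM. HCT-Oxa-c held 35, 33 and 55 counts, or 18.34, 14.75 and 56.42 CPM. HCT-FU-c held 36, 21 and 35 counts, or 27.2, 11.03 and 41.68 CPM. The HCT-Oxa-c libraries were all above those of HCT116, but the lowest exceeded the highest HCT116 library only in the second decimal, and HCT-FU-c overlapped with HCT116 through its replicate 2.

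The mean level of miR-190a-5p was 10.1 ± 5.00 CPM in HCT116 (SD, n = 3), 29.8 ± 23.1 CPM in HCT-Oxa-c and 26.6 ± 15.3 CPM in HCT-FU-c. These correspond to log2 fold changes of 1.57 (SE 0.70) and 1.42 (SE 0.70), the widest errors of the 4 miRNAs. The SD reached 77.4% of the mean in HCT-Oxa-c, and 57.6% of it in HCT-FU-c. The sublines overlapped with each other, with a log2 fold change of 0.16 (SE 0.66) between them. In the order of levels HCT-Oxa-c, HCT-FU-c and HCT116, neighbouring lines overlapped.

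In every line replicate 3 had the highest level of miR-190a-5p, as did 31.3% of all tested miRNAs. With the line in the model replicate 3 was higher than replicates 1 and 2 by 1.36 on the log2 scale (SE 0.341, edgeR adjusted p = 0.00228), a test added after seeing the data. Of all tested miRNAs 50.7% passed this test, in either direction. miR-218-5p, miR-589-5p and miR-629-5p did not (edgeR adjusted p = 0.664, 0.531 and 0.902). Compared within the same replicate number, miR-190a-5p in HCT-Oxa-c was above HCT116 by 1.95, 0.46 and 1.94 on the log2 scale and in HCT-FU-c by 2.52, 0.04 and 1.5. The sublines were above HCT116 in 3 of 3 replicate numbers, but the difference was small in replicate 2. Without replicate 3 of HCT-Oxa-c its log2 fold change in that subline fell from 1.57 to 0.82, and without replicate 3 of HCT-FU-c that of HCT-FU-c fell from 1.42 to 0.92. With replicates 1 and 2 of all lines alone the values were 1.11 and 1.21. The part of the epithelial, blood, liver and stromal marker levels of replicate 3 in these values was not tested.

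Counting error was considerable at this depth. For the 7 counts of HCT116 replicate 1 the 95% Wilson interval ran from 2.382 to 10.15 counts per 1e+06 counts of the library, and for the 55 counts of HCT-Oxa-c replicate 3 from 38.83 to 65.78.

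miR-589-5p, from an intron of FBXL18, was lower in both sublines. HCT116 replicates 1, 2 and 3 held 107, 120 and 87 counts, or 72.62, 85.68 and 116.2 CPM. HCT-Oxa-c held 101, 132 and 57 counts, or 52.93, 59 and 58.47 CPM. HCT-FU-c held 74, 86 and 36 counts, or 55.91, 45.17 and 42.87 CPM. Every library of both sublines was below every HCT116 library, and the sublines overlapped with each other.

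The mean level of miR-589-5p was 91.5 ± 22.4 CPM in HCT116 (SD, n = 3), 56.8 ± 3.36 CPM in HCT-Oxa-c and 48.0 ± 6.96 CPM in HCT-FU-c. In log2 terms the change was -0.68 (SE 0.26) for HCT-Oxa-c, and for HCT-FU-c -0.92 (SE 0.26). The means were 0.621 and 0.524 times that of HCT116. The log2 fold change between the sublines, 0.24 (SE 0.26), was smaller than its error, so their order was not resolved. The spread was widest in HCT116, at 24.4% of the mean, and lowest in HCT-Oxa-c, at 5.92%.

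The most abundant of the 4 in HCT116 was miR-629-5p, from an intron of TLE3. HCT116 replicates 1, 2 and 3 held 301, 190 and 108 counts, or 204.3, 135.7 and 144.2 CPM. HCT-Oxa-c held 128, 148 and 71 counts, or 67.08, 66.16 and 72.83 CPM. HCT-FU-c held 171, 201 and 113 counts, or 129.2, 105.6 and 134.6 CPM. HCT-Oxa-c was well below both other lines in every library, while the highest HCT-FU-c library came close to the lowest HCT116 library.

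The mean level of miR-629-5p was 161 ± 37.4 CPM in HCT116 (SD, n = 3), 68.7 ± 3.62 CPM in HCT-Oxa-c and 123 ± 15.4 CPM in HCT-FU-c. Its log2 fold change against HCT116 was -1.23 (SE 0.25) for the oxaliplatin-resistant subline and -0.39 (SE 0.24) for the other. Its mean in HCT-Oxa-c was 0.426 times that of HCT116, and it ranked 9 from the lowest fold change of the 367. Between the sublines the log2 fold change was -0.84 (SE 0.25). In the order HCT116, HCT-FU-c and HCT-Oxa-c no lines overlapped, but the first 2 means differed by about the SD of HCT116. Without replicate 1 of HCT116, the highest library, these values became -0.99 and -0.19.

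**Figure D2:**
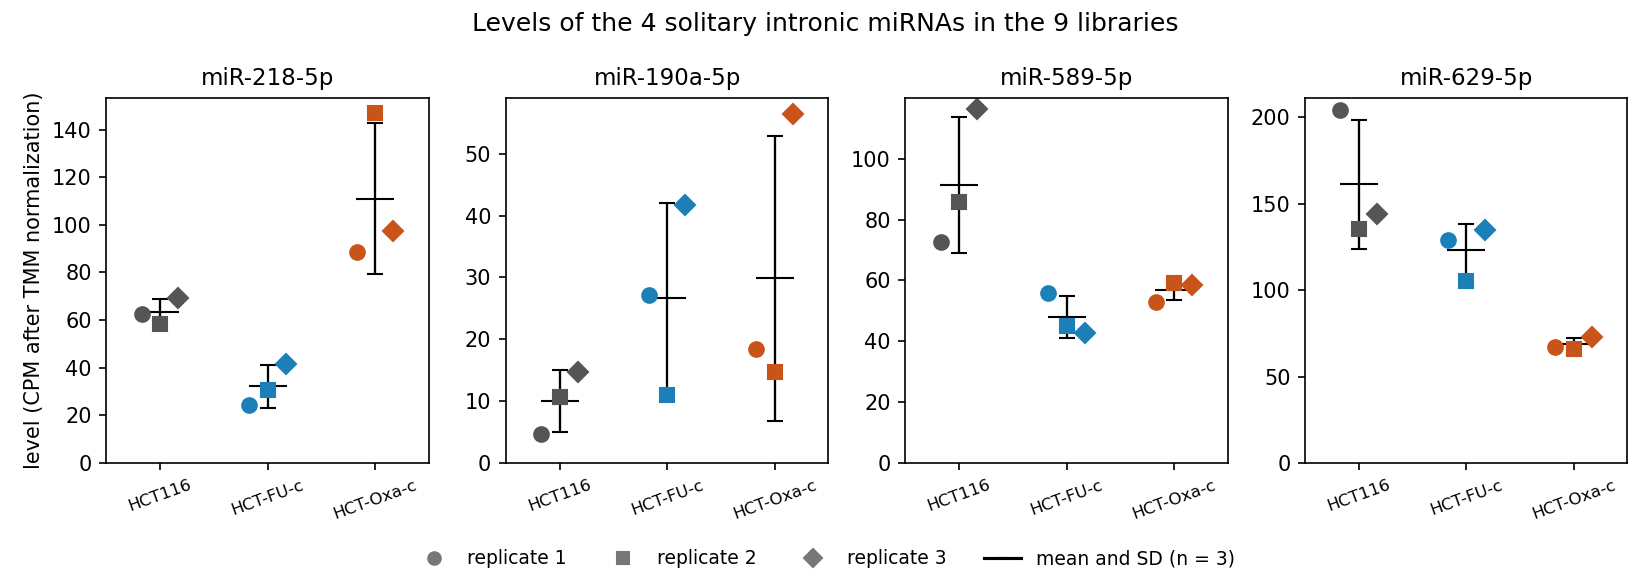
Level of each miRNA in the 9 libraries in CPM after TMM normalization, with circles, squares and diamonds for replicates 1, 2 and 3 and lines for the mean and SD (n = 3); each panel has its own axis from 0. miR-218-5p separates the 3 lines in the order HCT-FU-c, HCT116 and HCT-Oxa-c, and the diamonds of miR-190a-5p are the highest point of each line.

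Side by side, the HCT-Oxa-c libraries of all 4 miRNAs did not overlap with those of HCT116, 2 being higher and 2 lower. Among all tested miRNAs 16.1% did not overlap in this comparison, 8.99% being higher and 7.08% lower. All but miR-190a-5p, which is 3 of the 4, did not overlap between HCT-FU-c and HCT116 and were lower, while among all tested miRNAs 8.72% did not overlap and 4.36% were lower. For miR-629-5p this held only after TMM. Between the sublines miR-218-5p was higher and miR-629-5p lower in HCT-Oxa-c without overlap, and over all tested miRNAs this share was 22.9%, with 12.3% higher and 10.6% lower. The miRNAs were selected for such shifts, so these counts carry no weight of their own.

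**Figure D3:**
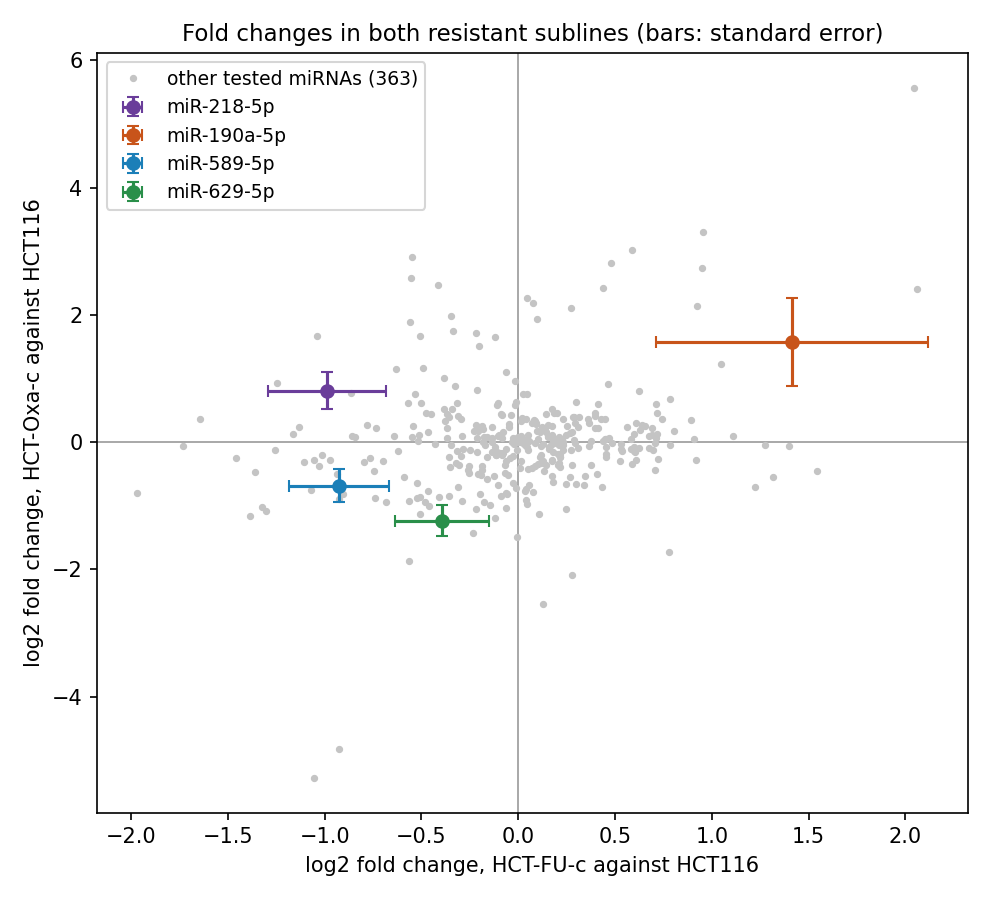
Log2 fold change in HCT-FU-c against HCT116 (x axis) and in HCT-Oxa-c against HCT116 (y axis) for the 4 miRNAs in colour, with bars of 1 standard error, and for the other 363 tested miRNAs in grey. Both axes use the same HCT116 libraries; miR-218-5p lies at -0.99 and 0.81, miR-190a-5p at 1.42 and 1.57, miR-589-5p at -0.92 and -0.68, and miR-629-5p at -0.39 and -1.23.

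The other strands of the same hairpins were not used to choose the miRNAs. The 5p strand dominated in each hairpin with reads from both strands. For MIR629 it made up 96.9% of the reads of both strands in HCT116 (95% Wilson interval 95.2 to 98.0, 3 libraries summed), 92.8% in HCT-Oxa-c (89.7 to 95) and 93.1% in HCT-FU-c (90.6 to 95). Intervals of summed reads leave out the spread between libraries. By library the share ran from 94.1% to 98.7% in HCT116, 89.7% to 100% in HCT-Oxa-c and 88.9% to 97.4% in HCT-FU-c, so the lines overlapped. The 3p strand of MIR629 is shown because it was the only 3p strand that could be tested.
miR-629-3p: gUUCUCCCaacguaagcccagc
It had 4, 12 and 3 counts in HCT116 replicates 1, 2 and 3, 10, 17 and 0 in HCT-Oxa-c, and 8, 25 and 3 in HCT-FU-c. The lines overlapped, and replicate 2 was the highest of each line. The log2 fold change of miR-629-3p was -0.15 in HCT-Oxa-c (SE 0.942, edgeR adjusted p = 1.00). For HCT-FU-c it was 0.60 (SE 0.924, edgeR adjusted p = 0.997). Its errors are wide enough to hold the change seen for miR-629-5p in HCT-Oxa-c, so at this depth it could not be shown whether both strands of the hairpin moved alike. With replicates 1 and 2 alone the sign in HCT-Oxa-c turned, to 0.23.

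For MIR589 the 5p strand made up 94.9% of reads in HCT116 (95% Wilson interval 91.9 to 96.8, libraries summed), 96.0% in HCT-Oxa-c (93.2 to 97.7) and 90.7% in HCT-FU-c (86.1 to 93.9). By library the lines overlapped, at 89.2% to 100%, 93.5% to 100% and 88.1% to 100% in the same order. miR-589-3p had 13, 4 and 0 counts in HCT116, 7, 5 and 0 in HCT-Oxa-c, with 10, 10 and 0 for HCT-FU-c. It was at 0 in each replicate 3 library, where a count of 0 allows up to 3.08 to 4.01 CPM, and it did not pass the filter. The 3p strand of MIR190A had 2 counts, both in HCT-FU-c replicate 2, and 0 in the other 8 libraries. The 3p strands of MIR218-1 and MIR218-2 are not among the listed miRNAs and so could not be analysed.

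The seed partner miR-190b-5p was rarer than miR-190a-5p in every library. It had 5, 2 and 4 counts in HCT116, 13, 3 and 9 in HCT-Oxa-c, with 8, 6 and 12 for HCT-FU-c. In the same order its mean level was 3.39 ± 1.96, 5.80 ± 4.04 and 7.83 ± 5.78 CPM (SD, n = 3), the lines overlapped, and it did not pass the filter. Of the reads of both miRNAs, miR-190a-5p made up 75.0% in HCT116 (95% Wilson interval 60.6 to 85.4), 83.1% in HCT-Oxa-c (76.3 to 88.3) and 78.0% in HCT-FU-c (69.7 to 84.5). These intervals overlap.

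Other miRNAs encoded near the hairpins were tested, since position was not part of the choice beyond the absence of a cluster. Within 10 Mb of MIR218-2 lay miR-103a-3p, from an intron of the pantothenate kinase gene PANK3, whose log2 fold changes were -0.13 and 0.05 in the oxaliplatin-resistant and the 5-fluorouracil-resistant subline (edgeR adjusted p = 0.994 and 0.997). This miRNA also has a second hairpin elsewhere, and its reads cannot be split. Apart from miR-629-5p itself, 4 tested miRNAs lay within 10 Mb of MIR190A, namely miR-2116-3p, miR-629-3p, miR-628-3p and miR-628-5p. The 2 tested within 10 Mb of MIR589 were miR-339-3p and miR-339-5p, and none but those already named lay near MIR629 or MIR218-1. None of these 7 passed an adjusted p of 0.05 in either comparison with HCT116 in edgeR, with or without the replicate block. Without the block none had an unadjusted p below 0.05, against 10.4% of all tested miRNAs for HCT-Oxa-c and 4.09% for HCT-FU-c. Over all tested miRNAs 2.45% passed the adjusted threshold for HCT-Oxa-c and 0% for HCT-FU-c, and with the block 14.7% and 5.45%. Beside these shares a count of 0 of 7 does not set the neighbours apart. Near MIR190A the libraries of 1 of 4 did not overlap with HCT116 in HCT-Oxa-c (miR-2116-3p, lower), against 16.1% of all tested miRNAs (7.08% lower). Of the same 4, miR-2116-3p and miR-628-5p were lower without overlap in HCT-FU-c, against 8.72% of all (4.36% lower). The libraries of the tested neighbours of MIR218-2 and MIR589 overlapped with HCT116 in both comparisons. Over all 7 neighbours the log2 fold changes ran from -0.86 to 0.40 for HCT-Oxa-c and from -1.36 to 0.69 in HCT-FU-c.

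The wider class of miRNAs with the same gene structure was examined next. It was defined as miRNAs whose every hairpin lies in an intron of a protein-coding gene on its strand. On that strand the hairpin overlaps no exon of a protein-coding gene and has no other hairpin within 10 kb. The opposite strand was not considered. Leaving out the 4 miRNAs above, 484 listed miRNAs met this definition, and 113 of them passed the filter. In HCT-Oxa-c none of the 113 was called at an adjusted p below 0.05 (edgeR, 1 at an unadjusted p below 0.05), against 9 of all 367 (2.45%, with 10.4% at an unadjusted p below 0.05). Their median log2 fold change was -0.09, beside -0.01 over all tested miRNAs. In HCT-FU-c none of the 113 was called either (edgeR, 4 at an unadjusted p below 0.05; DESeq2 called 1), and over all 367 edgeR also called none (15, or 4.09%, at an unadjusted p below 0.05; DESeq2 called 4). The median was 0.05, beside 0.02 over all tested miRNAs. Between the sublines 1 of the 113 was called (0.885%), against 16 of all 367 (4.36%). With the replicate number as a block the counts in the class were 6, 4 and 19 (5.31%, 3.54% and 16.8%), against 54, 20 and 97 over all tested miRNAs (14.7%, 5.45% and 26.4%).

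Libraries of 9 of the 113 did not overlap between HCT-Oxa-c and HCT116 (7.96%, 1 higher and 8 lower), and of 9 between HCT-FU-c and HCT116 (7.96%, 6 higher and 3 lower). Between the sublines 16 did not overlap (14.2%, 4 higher and 12 lower in HCT-Oxa-c). The corresponding shares over all tested miRNAs were 16.1% (8.99% higher, 7.08% lower), 8.72% (4.36% in each direction) and 22.9% (12.3% higher, 10.6% lower).

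The miRNA called between the sublines was miR-301a-5p, from an intron of SKA2, a gene of the spindle and kinetochore complex (MIR301A, chromosome 17, from 59151136 to 59151221). It had 65.84, 42.13 and 61.43 CPM in HCT116, 41.4, 44.7 and 36.93 CPM in HCT-Oxa-c and 211.5, 143.4 and 139.3 CPM in HCT-FU-c. Set against HCT-FU-c, the HCT-Oxa-c level had a log2 fold change of -2.001 (SE 0.284, edgeR adjusted p = 0.00443). All HCT-FU-c libraries were above the rest, with a log2 fold change of 1.55 against HCT116 (SE 0.28, edgeR adjusted p = 0.129), which ranked 1 of 367 by p. With the replicate block this value was 1.55 and passed the test (SE 0.228, edgeR adjusted p = 0.000136). It also passed with DESeq2 (adjusted p = 0.000526), with replicates 1 and 2 only (edgeR adjusted p = 0.00698) and, narrowly, with at least 10 counts in every library, and it failed with the other scalings, without the filter, with only the 6 libraries compared and with any 1 library left out (edgeR adjusted p from 0.128 to 0.813). The MIR454 hairpin lies 13.3 kb away, so miR-301a-5p leaves the class when no other hairpin is allowed within 50 kb, and no miRNA of the 100 that remain was called without the block (edgeR, 1, 3 and 6 at an unadjusted p below 0.05). With the block 5 of the 100 were called in HCT-Oxa-c, 3 in HCT-FU-c and 17 between the sublines, a setting added after seeing the data. The other strand of MIR301A, miR-301a-3p, was tested and not called between the sublines without the block.

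The other single intronic miRNAs with the largest shifts among those with no overlap did not pass the test without the block. In HCT-Oxa-c these included miR-877-5p (host ABCF1, a gene of translation initiation) at a log2 fold change of -1.01 and miR-499a-5p (the myosin gene MYH7B) at 0.67. The HCT-Oxa-c comparison gave edgeR adjusted p-values of 0.261 and 0.521. In HCT-FU-c miR-664a-3p (RAB3GAP2) had a log2 fold change of 1.40, miR-1180-3p (the ciliary gene B9D1) of -0.85 and miR-744-5p (the kinase gene MAP2K4) of -0.55. The edgeR adjusted p-values there were 0.968, 0.708 and 0.913. With the block miR-1180-3p passed in HCT-FU-c (log2 fold change -0.88, SE 0.235, edgeR adjusted p = 0.0266), and the others still did not in the comparison for which they are named. The change of miR-629-5p in HCT-Oxa-c, -1.23, was a larger decrease than any of these named miRNAs, but it was chosen for its shift. Over all 113 of the class, those with overlap included, the lowest log2 fold change in HCT-Oxa-c was -1.2, about the same.

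The tested miRNAs with the most similar pattern were found by Pearson's r of log2 CPM over the 9 libraries, which share the library effects described above. miR-218-5p was most like miR-148a-3p (r = 0.93), miR-181b-3p (0.875) and miR-1180-3p (0.874). miR-148a-3p is far more abundant, with 4242 ± 523 CPM in HCT116, 5770 ± 687 CPM in HCT-Oxa-c and 3108 ± 157 CPM in HCT-FU-c (SD, n = 3). It has the same order of lines as miR-218-5p.

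miR-190a-5p was most like let-7c-5p (r = 0.887), miR-98-5p (0.816) and miR-128-3p (0.806). All 3 were, like miR-190a-5p, highest in replicate 3 of each line, with a log2 difference between replicate 3 and replicates 1 and 2 of 1.01 (SE 0.266) for let-7c-5p. Between lines their means differed by less than the largest SD of a line. For let-7c-5p they were 28.1 ± 15.9 CPM in HCT116, 34.4 ± 13.1 CPM in HCT-Oxa-c and 42.6 ± 20.3 CPM in HCT-FU-c (SD, n = 3).

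miR-589-5p had the weakest likeness, to miR-324-5p (r = 0.74), miR-320c (0.707) and miR-27a-5p (0.662). miR-629-5p was most like miR-330-3p (r = 0.943), miR-30a-5p (0.909) and miR-23a-3p (0.893). miR-330-3p, also from an intron (host EML2), had 171 ± 23.9 CPM in HCT116, 90.3 ± 5.79 CPM in HCT-Oxa-c and 140 ± 14.0 CPM in HCT-FU-c (SD, n = 3), levels near those of miR-629-5p. miR-30a-5p had a far larger difference, with 1467 ± 160 CPM in HCT116 and 38.0 ± 15.6 CPM in HCT-Oxa-c. Among the 4 intronic miRNAs themselves r ran from -0.545, for miR-218-5p with miR-629-5p, to 0.387, for miR-589-5p with miR-629-5p.

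Adding the replicate number as a block changed the fold changes little and narrowed their errors. In HCT-Oxa-c the blocked log2 fold change was 0.80 for miR-218-5p, 1.38 for miR-190a-5p, -0.66 for miR-589-5p and -1.22 for miR-629-5p. In HCT-FU-c it was -1.03, 1.31, -0.89 and -0.39. The SE of miR-190a-5p fell from 0.70 to 0.438 for HCT-Oxa-c and to 0.448 for HCT-FU-c.

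**Figure D4:**
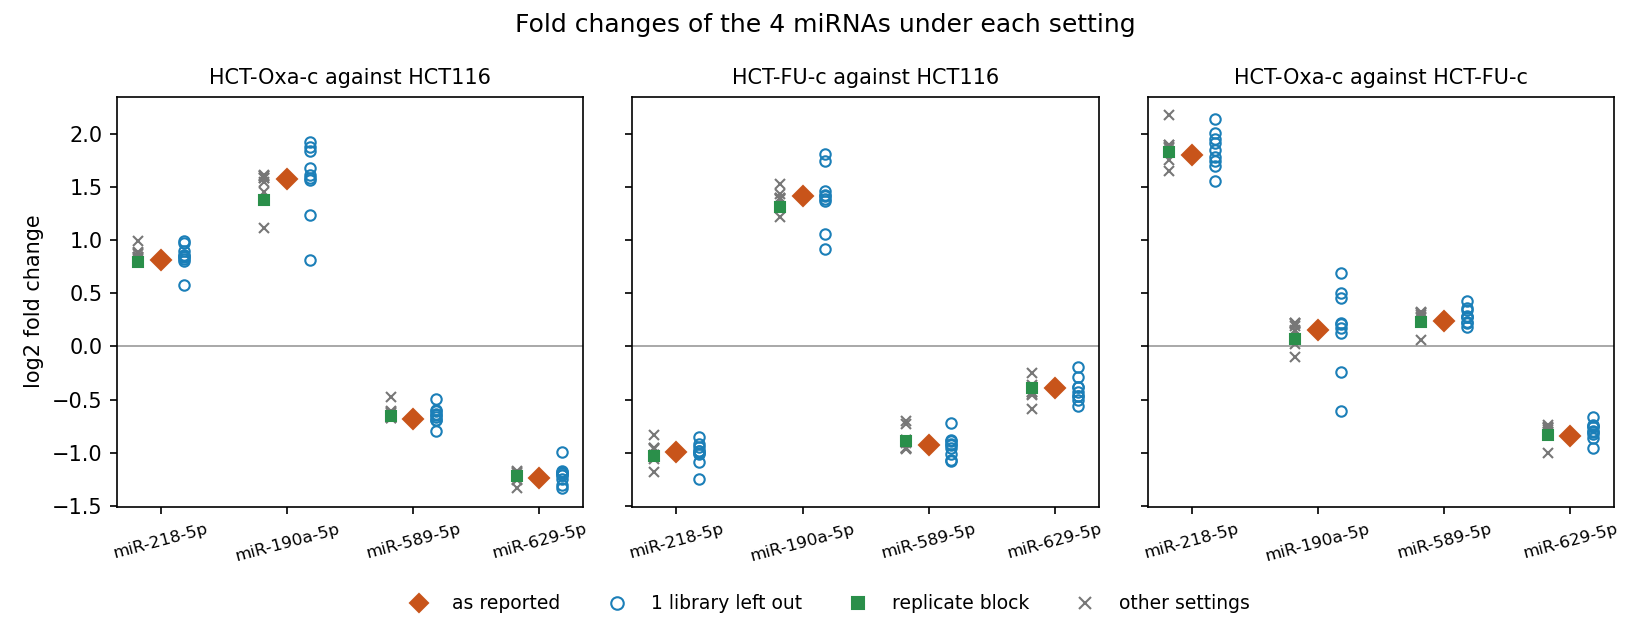
Log2 fold change of each miRNA in the 3 comparisons as reported (diamonds), with 1 library left out (circles), with the replicate block (squares) and under the other settings (crosses). All points of the comparisons with HCT116 keep the sign of the diamond, and the points of miR-190a-5p between the sublines lie on both sides of 0, from -0.60 to 0.69.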

How the data were processed

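Total RNA of 3 cultures of each line (parental HCT116, HCT-Oxa-c, HCT-FU-c) was made into NEXTflex small RNA libraries and sequenced on an Illumina MiSeq. The authors deposited raw read counts per mature miRNA. The authors also deposited a normalized signal, each count divided by 1 factor per library, which was not used here. The submitters' processing notes name CASAVA 1.8, Bowtie 1.1.2, DESeq2 and build GRCh38.p7 without a role. The counting tool, its annotation and its use of strand are not given in the sources used here. Columns were matched to samples by name, and 0 were left unmapped. The paper gives another culture medium than the labels do.

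The whole table was fitted with edgeR 4.0.16 (R 4.3.3), with TMM normalization, the quasi-likelihood F test, the line as factor over 9 libraries and filterByExpr (minimum count 10, minimum total 15). Fold changes used a prior count of 0.125, correlations a prior count of 2, and Benjamini-Hochberg adjustment covered the 367 tested miRNAs with a threshold of 0.05. The code was tested on simulated data. Total counts of 856383 to 2207538 set the precision, and a count of 3 was taken as the limit of detection. The p-values set a difference between lines against the spread between replicate cultures of the lines, estimated over all 9 libraries. They do not cover the spread between independent selections.

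The members and lists were chosen with earlier results of these data known, and no p-value adjusted over the list alone is given. Named besides the 4 miRNAs were the other strands, seed partners and miRNAs of the host genes, the 3 most correlated miRNAs of each, and of the other single intronic miRNAs those called and the 2 largest rises and decreases in each comparison with HCT116 among those without overlap (1 rise met this in HCT-Oxa-c, and 1 decrease there is not reported here). Neighbouring miRNAs were chosen by distance alone, and miR-301a-3p was named as the other strand of a called miRNA. Hairpins and introns come from GENCODE 29 (GRCh38), in which 1180 of 1198 miRNAs were found, and sequences from RefSeq, in which 1059 were found. Coordinates are those of GENCODE 29.

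Same-numbered replicates deviated from their line means together, with correlations of 0.411 to 0.513, 0.56 to 0.654 and 0.738 to 0.764 for replicates 1, 2 and 3. Replicates 1 and 2 of different lines correlated about as well with each other, at 0.417 to 0.614. Replicate 3 against replicates 1 and 2 ran from -0.684 to -0.502. Deviations within a line cancel out, so these negative values follow from the shared deviation of the replicate 3 libraries and add nothing separate. The positive values between replicates 1 and 2 follow from it in part. The check set replicate 3 apart and did not show that replicates 1 and 2 are paired by number. Libraries were nevertheless taken as paired by number for the block. The replicate numbers come from the sample labels, which name no batch and do not state that equal numbers pair libraries of different lines. The block lowered the biological coefficient of variation from 0.458 to 0.174. Alternatives covered normalization, DESeq2 1.42.0, the filter, the libraries used, the block, the threshold and each library left out. The contrast of replicate 3 with replicates 1 and 2, and the block at a hairpin distance of 50 kb, were added after seeing the data.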

Additional observations from a re-analysis of the deposited data

Results flagged for a closer look

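The log2 fold change of miR-218-5p between HCT-Oxa-c and HCT-FU-c, 1.798, drew attention because every HCT-Oxa-c library was above and every HCT-FU-c library below the HCT116 libraries. This difference was not tested, since miR-218-5p was chosen for its shifts. The response of miR-301a-5p, of the SKA2 intron, also differed between the sublines, with a log2 fold change of -2.001 in HCT-Oxa-c against HCT-FU-c (SE 0.284, edgeR adjusted p = 0.00443, n = 3 per line, libraries without overlap). The other strand of its hairpin, miR-301a-3p, was tested and not called in this comparison without the block.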

How the results depend on the processing

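The 12 fold changes of the 4 miRNAs were recomputed under 225 alternatives in all, and 222 values kept their sign; the 3 others are of miR-190a-5p between the sublines. With total counts as library sizes the log2 fold change between the sublines moved to 0.059 for miR-589-5p and -1.003 for miR-629-5p, and the median over all miRNAs moved to 0.19 in HCT-FU-c against HCT116 and -0.26 between the sublines. A filter of at least 10 counts in every library left miR-190a-5p out, so it gave no value there.

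Leaving out 1 library gave these log2 ranges in HCT-Oxa-c: 0.57 to 1.00 for miR-218-5p, 0.82 to 1.92 for miR-190a-5p, -0.79 to -0.50 for miR-589-5p and -1.33 to -0.99 for miR-629-5p. In HCT-FU-c they were -1.24 to -0.85, 0.92 to 1.81, -1.07 to -0.72 and -0.56 to -0.19, and between the sublines 1.56 to 2.14, -0.60 to 0.69, 0.18 to 0.42 and -0.96 to -0.67. For miR-629-3p the sign turned in HCT-Oxa-c (-0.75 to 0.58, with 0.58 without HCT116 replicate 2 and 0.38 without HCT-Oxa-c replicate 3) and in HCT-FU-c (-0.070 to 1.20, with -0.070 without HCT-FU-c replicate 2), and it was 0.23 in HCT-Oxa-c with replicates 1 and 2 only.

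The counts of called miRNAs depended on the setting. For HCT-Oxa-c, HCT-FU-c and the sublines against each other they were 54, 20 and 97 with the replicate block that pairs libraries by number, 43, 13 and 67 with replicates 1 and 2 only, 23, 4 and 43 with DESeq2, and 4, 1 and 9 with at least 10 counts in every library. Without the filter they were 16 for HCT-Oxa-c and 1 for HCT-FU-c, and at an adjusted p below 0.10 they were 16 in HCT-Oxa-c and 30 between the sublines. Leaving out 1 library gave 4 to 12 in HCT-Oxa-c (4 without HCT116 replicate 2), 0 in HCT-FU-c and 6 to 23 between the sublines (6 without HCT-FU-c replicate 1 or 2). Among the other single intronic miRNAs the counts were 6, 4 and 19 with the block and 1, 3 and 7 with replicates 1 and 2 only. DESeq2 called 1 of them in HCT-FU-c and 4 between the sublines, no filter gave 1 in HCT-Oxa-c, at least 10 counts gave 1 in HCT-FU-c, an adjusted p below 0.10 gave 2 between the sublines and a distance of 50 kb gave 0. A distance of 50 kb with the block, added after seeing the data, gave 5, 3 and 17. Leaving out 1 library gave 0 of them in either comparison with HCT116 and 1 to 2 between the sublines. Apart from what was used in each alternative, the cause of these shifts was not tested. Depth limits miR-190a-5p most, with 7 counts in its lowest library.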
